A study of Capra hircus with 11 samples.

Results

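The nuclear genes of oxidative phosphorylation were examined in 5 pooled single-cell expression tables of goat cells. They were taken as every gene row whose symbol starts with NDUF, UQCR, COX4, COX5, COX6, COX7, COX8, SDH or ATP5 in any of the tables. The rule uses symbols and no measured value, but it was chosen with earlier results of these data known. The rule found 72 of 16678 rows. By role they were 7 core subunits, 30 accessory subunits and 8 assembly factors of complex I, 4 subunits and 4 assembly factors of complex II, and 15 subunits of complex V. The remaining genes were NDUFA4 and NDUFA4L2, which belong with complex IV despite their names, and ATP5S and ATP5SL, which are not subunits of complex V. None of the 72 rows belonged to complex III or to the COX4 to COX8 subunits of complex IV, so these were not analysed here. Of the 72 genes, 72 were listed in each of 4 tables and 71 in the table of CiMECs, where NDUFA4L2 was not listed. Protein and promoter sequences of these genes were not used here.

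In oxidative phosphorylation, electrons from NADH enter the inner mitochondrial membrane through complex I and electrons from succinate through complex II, and pass by way of complexes III and IV to oxygen. The protons pumped on the way drive complex V, the ATP synthase, a rotary enzyme whose ring of c subunits turns in the membrane. Most of its proteins are made from nuclear genes and are built into complexes with the help of assembly factors that are not part of the finished enzyme. In lactating mammary epithelium this pathway supplies much of the ATP used to make milk.

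Expression was measured in droplets with a 10x Genomics 3′ kit, which counts unique molecular identifiers (UMIs) near the 3′ end of a transcript. BFRTV0d holds 3 samples of goat ear fibroblasts before induction. BFRTV4d holds 3 samples and BFRTV8d 2 samples of such fibroblasts after 4 and 8 days in an induction medium named BFRTV, on Matrigel with fresh medium every 2 days. The 1 sample of CiMECs comes from day-8 cells that were then passaged every 3 to 4 days in medium for goat mammary epithelial cells, and GMECs holds 2 samples of mammary epithelial cells that were derived naturally rather than by induction. The labels list 2 samples for BFRTV8d where the design text of the series counts 3 replicates. Titles of samples in the same group are alike but for a sheet number and a sequencing lane, so they may be lanes of 1 library. No source used here gives the age, sex or number of the animals, or says whether the samples of a group were separate cultures. Each group was 1 pooled table, so there was no replicate, no test and no p-value, and each difference below compares tables. The 95% intervals cover counting error only.

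Levels are given as CPM, the UMIs of a gene per 1000000 UMIs of the table after ribosomal protein genes were left out. For BFRTV0d, BFRTV4d, BFRTV8d, CiMECs and GMECs these totals were 117500853, 106750380, 103337253, 72291250 and 72177482 UMIs, over 10670, 10203, 10152, 5188 and 5641 cell barcodes. Ribosomal protein genes were left out because the BFRTV tables list 0 of them, whereas CiMECs and GMECs list 74, which held 25.6% and 35.0% of their UMIs. CiMECs and BFRTV8d therefore differ both in cells and in how the table was made, and the 2 cannot be told apart in that comparison. The labels were checked against cell type markers. The summed level of the epithelial markers, of which 10 of 12 were listed in each table, was 1687, 6469, 13356, 19045 and 28827 CPM from BFRTV0d to GMECs. For the 12 mesenchymal markers, with DCN, LUM and the collagens among them, it was 11624, 2496, 265, 11.5 and 0.859 CPM. Of these 12, the tables listed 12, 12, 11, 7 and 2 in the same order. Summed immune markers stayed between 2.45 and 6.77 CPM and summed endothelial markers did not exceed 1.91 CPM. Doublets were not called.

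The comparison of BFRTV4d and BFRTV8d with BFRTV0d asks how these genes differed during induction. Together, the 72 genes held 21557 CPM in BFRTV0d (95% interval 21530.4 to 21584), 30868 CPM in BFRTV4d (30835 to 30902) and 26679 CPM in BFRTV8d (26647 to 26710.2). The sum was thus 1.43-fold higher at day 4 than at day 0 (interval 1.430 to 1.434) and 1.24-fold higher at day 8 (1.236 to 1.240). From day 4 to day 8 it was 1.16-fold lower. CiMECs had 39298 CPM (39253 to 39344) and GMECs 34775 CPM (34732 to 34818), so that the order of the 5 tables was CiMECs, GMECs, BFRTV4d, BFRTV8d and BFRTV0d, and no neighbouring intervals overlapped. CiMECs were 1.47-fold above BFRTV8d and 1.13-fold above GMECs. Both ratios moved with the scaling. The former went to 2.46 with edgeR's TMM factors, 2.56 with DESeq2's size factors and 1.10 with totals over all listed genes. The latter went to 1.60, 1.64 and 1.29 in the same order. As a share of non-ribosomal UMIs, the genes made up 2.16%, 3.09%, 2.67%, 3.93% and 3.48% of the tables in the order BFRTV0d, BFRTV4d, BFRTV8d, CiMECs and GMECs, and this order is kept below wherever 5 values follow each other. As a share of all listed UMIs, ribosomal genes included, they made up 2.92% of CiMECs and 2.26% of GMECs, which lay below BFRTV4d, and GMECs also below BFRTV8d.

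The complexes did not move alike. Complex V, the ATP synthase, held 9684, 15722, 14215, 16996 and 15053 CPM, and was 1.62-fold higher at day 4 and 1.47-fold higher at day 8 than at day 0. Of this sum, ATP5G2 alone held 1282, 3055 and 3896 CPM at days 0, 4 and 8. The median log2 fold of the 15 subunits was 0.63 at day 4 and 0.57 at day 8. Of the 15, 14 and 10 lay above 0, against 34.7% and 41% of all genes. Complex I subunits held 9417, 12367, 10038, 18977 and 16142 CPM, 1.31-fold higher at day 4 but 1.07-fold higher at day 8, and 1.89-fold higher in CiMECs than in BFRTV8d. Set against complex I, complex V was thus highest in BFRTV8d and lowest in CiMECs. Complex II held 502, 468, 553, 732 and 748 CPM. The summed assembly factors of complex I ran the other way during induction, with 811, 488 and 301 CPM at days 0, 4 and 8. The sum was 1.66-fold lower at day 4 and 2.70-fold lower at day 8 than at day 0. It was 572 CPM in CiMECs and 729 CPM in GMECs. NDUFAF8 alone held 520, 328 and 120 CPM of it at days 0, 4 and 8. Above a log2 fold of 0 lay 3 of 7 factors compared at day 4 and 1 of 6 at day 8. The NDUFA4 family held 952, 1612, 1322, 1795 and 1921 CPM.

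**Figure D1:**
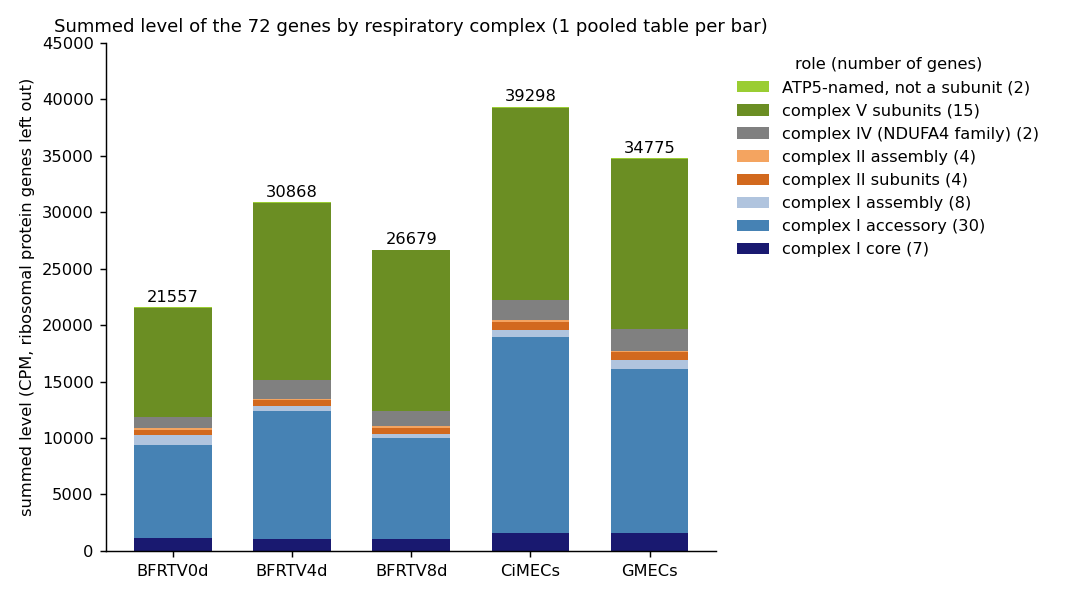
Summed level of the 72 genes by role in the 5 tables, as stacked bars on an axis of CPM without ribosomal protein genes that starts at 0. The bars reach 21557, 30868, 26679, 39298 and 34775 CPM, and the complex I part is largest in CiMECs and GMECs.

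Several of these directions depend on how tables are scaled. With edgeR's TMM or DESeq2's size factors, or where totals also counted ribosomal genes, the sums of all 72 genes kept their direction in each comparison. Complex II and the core subunits of complex I, 1.07-fold and 1.09-fold lower at day 4 than at day 0, turned to 1.08-fold and 1.06-fold higher with TMM and to 1.10-fold and 1.08-fold higher with DESeq2's factors. The core subunits were 1.13-fold lower at day 8 and stayed lower with TMM but not with DESeq2's factors, where the ratio was 1.00. NDUFS8 alone held 514, 316 and 278 CPM of core sums of 1160, 1063 and 1029 CPM at days 0, 4 and 8. Most core genes were not lower. Of the 7, 5 lay above a log2 fold of 0 at day 4 and 5 at day 8, against 34.7% and 41% of all genes. Between CiMECs and BFRTV8d, complex V was 1.20-fold higher and complex II 1.32-fold higher, but with totals over all listed genes the ratios were 0.889 and 0.985. Complex I subunits and assembly factors kept their direction there under each scaling.

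At day 4 against day 0, the genes stood above the typical gene. Of the 71 that reached 10 CPM in either table, 13 were at least 2-fold higher, against 13.4% of 8949 genes compared, and 4 were at least 2-fold lower, against 25.4%. Their median log2 fold was 0.42, whereas the median of all genes was -0.39, and 62 of the 71 lay above the all-gene median, as 50% of genes do by definition and 58.2% of genes that averaged at least 100 CPM did. Of the complex V subunits, 15 of 15 did so, and of complex I subunits 34 of 37. The share called 2-fold higher was thus a little above the background and the share called lower well below it, while most of the set lay above the typical gene. With TMM, 18 of 71 were at least 2-fold higher, against 16.4% of all genes. With TMM the all-gene median was -0.18, and the genes' median lay 0.80 above it, against 0.81 as scaled here. Against genes that averaged at least 100 CPM the excess was 0.62, and at day 8 it was 0.35.

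Day 8 against day 0 showed less of this. Of 70 genes compared, 11 were at least 2-fold higher, against 19.7% of 9317 genes, and 5 were at least 2-fold lower, against 28%. The median log2 fold was 0.15 for the genes and -0.29 for all genes, and 53 of 70 lay above that, against 50% of all genes and 53% of those that averaged at least 100 CPM. By role, 12 of 15 complex V subunits, 29 of 37 complex I subunits and 2 of 6 complex I assembly factors lay above the all-gene median. Between days 4 and 8 the genes went below other genes. Of 69 compared, 1 was at least 2-fold higher, against 10.7% of 8469 genes, 2 were at least 2-fold lower, against 7.1%, and 13 of 69 lay above the all-gene median of 0.12, with a median of their own of -0.21. Of all genes 50% and of those that averaged at least 100 CPM 42.4% lay above it. These 3 comparisons share tables with each other and are not independent.

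CiMECs against BFRTV8d asks what differed after passage in mammary medium. There 22 of 70 genes were at least 2-fold higher, against 9.94% of 8197 genes, and 1 was at least 2-fold lower, against 43.3%. The median log2 fold was 0.69 for the genes and -0.78 for all genes, and 67 of 70 lay above the latter, against 50% of genes. This reading depends on scaling and level. With totals over all listed genes, 8 genes were at least 2-fold higher and 6 lower, against 5.34% and 57.9% of all genes, whose median was then -1.24. With TMM, 48 of 71 were higher and 1 lower, against 23.1% and 21.3% of all genes, whose median was 0.06. Of the 1469 genes that averaged at least 100 CPM, 22% were at least 2-fold higher and 71.2% lay above the all-gene median. The median log2 fold of those genes was 0.01, so that the 72 genes lay 0.68 above genes of such levels and 1.47 above all genes. Of the complex I subunits, 17 of 37 were at least 2-fold higher and 0 lower, as against 3 of 15 complex V subunits.

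CiMECs and GMECs come from the same set of tables, and few of the genes were 2-fold apart as scaled here. Of 70 compared, 1 was at least 2-fold higher, against 5.53% of 7263 genes, and 1 was at least 2-fold lower, against 26%. With TMM 13 of 71 were at least 2-fold higher and 0 lower, against 13.3% and 9.08% of all genes, and with DESeq2's factors 16 were higher and 0 lower, against 14.0% and 8.67%. The median log2 fold was 0.15, against -0.51 for all genes, and 63 of 70 lay above the all-gene median, against 50% of genes and 71.8% of those that averaged at least 100 CPM. With TMM the genes' median lay 0.62 above that of all genes, against 0.66 as scaled here, but it lay 0.26 above that of genes averaging at least 100 CPM.

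**Figure D2:**
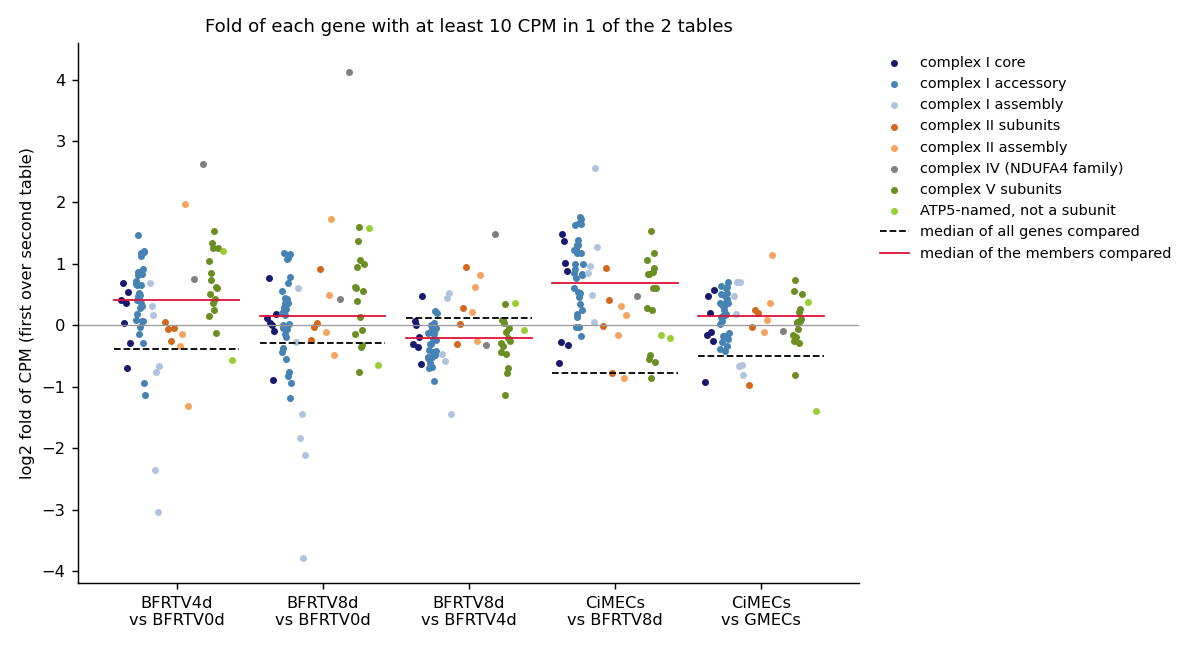
Log2 folds of the compared genes by role in the 5 comparisons, with 1 point per gene, the median of all genes as a dashed black line and the median of the compared genes of the 72 as a red line. In CiMECs against BFRTV8d the complex I subunits lie above the all-gene median of -0.78, and NDUFA4L2 is not drawn there because CiMECs do not list it.

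The core subunits of complex I carry its flavin, iron-sulphur clusters and quinone site. NDUFS8, which holds 2 iron-sulphur clusters, had 514, 316, 278, 559.6 and 601 CPM, so that it was lower in both induced tables than in fibroblasts, and CiMECs and GMECs lay above BFRTV8d. NDUFS3 had 82.5, 84.6, 85.1, 239 and 173 CPM, level through induction and 2.81-fold higher in CiMECs than in BFRTV8d (2.74 to 2.89). NDUFS7, the subunit next to the quinone site, had 122, 156, 123, 316 and 276 CPM and was 2.58-fold higher in CiMECs than in BFRTV8d. NDUFV2 of the electron entry site had 234, 191, 267, 215 and 144 CPM. NDUFS1, the largest subunit, had 25.4, 34.0, 27.5, 18.0 and 34.0 CPM, and its ratio of CiMECs to BFRTV8d turned from 0.654 to 1.09 with TMM. Hence the core genes did not share a pattern. As scaled here, 3 of 7 were at least 2-fold higher in CiMECs than in BFRTV8d. The same held for 9.94% of all genes and 22% of those that averaged at least 100 CPM.

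The accessory subunits, which surround that core and are needed for its assembly and stability, did not all differ alike. They are grouped here by the comparison in which they were at least 2-fold apart. Such groups rest on that cut and on the scaling used here, and membership can change with either. One group was higher from day 4 on. NDUFA6 had 168, 465, 378, 644 and 514 CPM and was 2.77-fold higher at day 4 (2.72 to 2.81). NDUFS5 had 359, 829, 622, 1104 and 679 CPM, 2.31-fold higher at day 4. NDUFS4 (157, 359, 349.7, 416 and 325 CPM), NDUFB5 (83.7, 190.1, 179, 227 and 201 CPM) and NDUFB3 (149, 324, 314, 308 and 273 CPM) behaved likewise, at 2.29-fold, 2.27-fold and 2.17-fold higher at day 4 than at day 0. NDUFC2 was highest of the BFRTV tables at day 8, with 284, 539, 630.5, 557 and 703 CPM, 2.22-fold above day 0. For these 6 genes both induced tables lay above fibroblasts.

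A second group was at least 2-fold higher in CiMECs than in BFRTV8d as scaled here, whatever its course during induction. NDUFB2, with NDUFS5 the accessory subunit with most UMIs over the 5 tables, had 483, 624, 462, 1462 and 1056 CPM, 3.17-fold higher in CiMECs than in BFRTV8d (3.13 to 3.20). NDUFB7 had 591, 624, 333, 1123 and 736 CPM, with a fold of 3.38 (3.33 to 3.42), and NDUFB8 had 218, 272, 279, 931 and 648 CPM, with a fold of 3.33 (3.29 to 3.38). NDUFC1 (540.0, 444, 318, 997 and 645 CPM) and NDUFA12 (324, 369, 251, 779.7 and 501 CPM) were 3.13-fold and 3.10-fold higher. NDUFB11, NDUFB10 and NDUFAB1, the last of which is also the mitochondrial acyl carrier protein, were 2.63-fold, 2.48-fold and 2.47-fold higher. Of these, NDUFB7, NDUFC1 and NDUFB11 (423, 412, 289, 759 and 609 CPM) were also lower at day 8 than at day 0, whereas NDUFB8 and NDUFB10 were higher. In each of these genes GMECs lay between BFRTV8d and CiMECs. NDUFB subunits belong to the membrane arm, on the proton-pumping side of the enzyme, but not all of them were in this group. As scaled here, NDUFB1, NDUFB4, NDUFB5 and NDUFB6 were less than 2-fold higher in CiMECs than in BFRTV8d, and NDUFB3 was not higher.

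A few accessory genes ran against the first pattern. NDUFS6 of the peripheral arm had 549.6, 285, 241, 426 and 496 CPM, and was 2.28-fold lower at day 8 than at day 0 (2.24 to 2.31). NDUFV3, a small subunit of the electron entry site, had 175, 79.8, 91.2, 183 and 198 CPM and was 2.19-fold lower at day 4 (2.14 to 2.25) and 2.00-fold higher in CiMECs than in BFRTV8d. Over all 72 genes, the highest level was in CiMECs for 36, in GMECs for 18, in BFRTV0d for 7, in BFRTV8d for 7 and in BFRTV4d for 4. This tally depends on scaling, since CiMECs were highest for 61 genes and GMECs for 5 with TMM, and with totals over all listed genes CiMECs for 23, BFRTV4d for 25 and GMECs for 3. Of the BFRTV tables, day 4 was the highest for 41 genes, and both induced tables lay above day 0 for 39 genes and below it for 16, or for 48 and 11 with TMM.

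**Figure D3:**
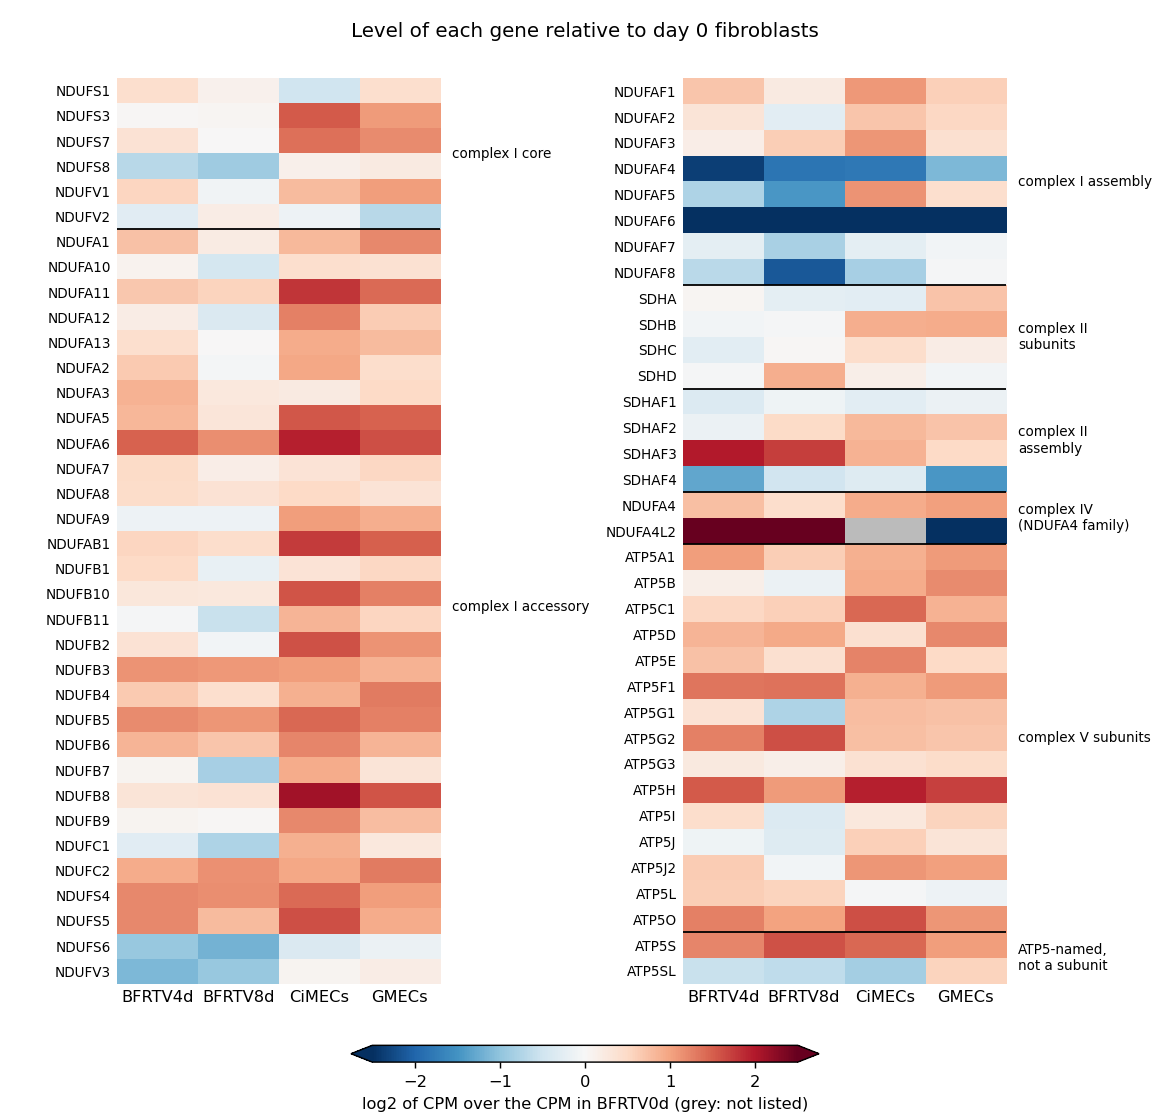
Log2 ratio of the CPM of 71 of the genes to their CPM in BFRTV0d, with 1 row per gene by role and a column for each of the 4 other tables; values past the ends of the colour bar take its end colours and grey marks a gene that is not listed. As scaled here most rows are warmest in CiMECs or GMECs, and NDUFAF6 is dark blue in each column.

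The assembly factors of complex I held the largest downward folds during induction. NDUFAF6, needed at an early step of assembly, had 66.6, 8.07, 4.83, 6.43 and 10.0 CPM. It was 8.25-fold lower at day 4 (7.69 to 8.87) and 13.8-fold lower at day 8 (12.6 to 15.1) than in fibroblasts, and neither CiMECs nor GMECs came near the fibroblast level. NDUFAF4 had 101, 19.8, 28.5, 29.4 and 46.5 CPM and was 5.11-fold (4.88 to 5.36) and 3.55-fold lower (3.41 to 3.70) at days 4 and 8. Its partner NDUFAF3 did the reverse, with 75.0, 84.4, 115, 161 and 98.6 CPM, and was 1.53-fold higher at day 8.

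NDUFAF8 and NDUFAF5 act together on NDUFS7. NDUFAF8 had 520.0, 328, 120.2, 292 and 511 CPM, which was 4.33-fold lower at day 8 than at day 0 (4.24 to 4.41) and 2.43-fold higher in CiMECs than in BFRTV8d. NDUFAF5 had 16.5, 9.72, 6.05, 35.7 and 22.0 CPM, 2.73-fold lower at day 8 (2.49 to 2.99) and 5.91-fold higher in CiMECs than in BFRTV8d (5.41 to 6.46), the largest upward fold among the 72 genes in that comparison. Both were thus lowest at day 8, with higher levels in CiMECs and GMECs. The other factors lay low in every table, NDUFAF1 at 7.73 to 16.3 CPM, NDUFAF2 at 12 to 23.5 CPM and NDUFAF7 at 5.30 to 9.27 CPM. In the scaling with TMM, the summed assembly factors of CiMECs turned from 1.27-fold lower to 1.11-fold higher than those of GMECs.

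Complex II, which is also the succinate dehydrogenase of the citric acid cycle, differed little in its sum during induction, at 468 to 553 CPM. Its single subunits differed more between tables. SDHB, its iron-sulphur subunit, had 203, 195, 198, 379 and 386 CPM, level through induction and higher in CiMECs and GMECs. The membrane anchor SDHC had 161, 134, 164, 219 and 183 CPM, and the other anchor, SDHD, had 70.3, 68.5, 133, 77.6 and 67.4 CPM, highest in BFRTV8d except with DESeq2's factors, where the ratio of CiMECs to BFRTV8d was 1.02. SDHA, the flavoprotein, had 68.1, 70.7, 57.5, 56.9 and 112 CPM, so that CiMECs lay below GMECs. The 4 subunits, which occur in equal numbers in the enzyme, therefore did not keep a fixed ratio between tables.

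Among the assembly factors of complex II, SDHAF3 and SDHAF4 moved in opposite directions at day 4. SDHAF3, which protects SDHB while its clusters are inserted, had 21.7, 85.6, 71.6, 39.4 and 30.5 CPM, 3.94-fold higher at day 4 (3.77 to 4.12) and 3.30-fold higher at day 8 (3.15 to 3.45). SDHAF4, which binds SDHA, had 91.5, 37.0, 65.3, 73.2 and 33.2 CPM, 2.48-fold lower at day 4 (2.39 to 2.57). It was also the gene at least 2-fold higher in CiMECs than in GMECs, by 2.21-fold (2.10 to 2.32). SDHAF1 had 15.5 to 19.6 CPM, and SDHAF2, which attaches the flavin to SDHA, had 20.8 to 39.9 CPM.

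NDUFA4 was first taken for a complex I subunit and is now counted with cytochrome c oxidase. It had 949.9, 1598, 1282, 1795 and 1921 CPM. NDUFA4L2, its paralogue and a known target of the hypoxia response, had 2.26 CPM in BFRTV0d (266 UMIs), 14.0 in BFRTV4d (1497 UMIs) and 39.3 in BFRTV8d (4065 UMIs), was not listed in CiMECs and had 0.152 CPM in GMECs (11 UMIs). It was 6.19-fold higher at day 4 (5.43 to 7.08) and 17.4-fold higher at day 8 (15.3 to 19.7) than at day 0, the largest upward folds of the 72 genes in both comparisons. With the CiMECs row set at 6 UMIs, 1 for each of the fewest cells in which a listed gene of that table was found, the level in CiMECs was 474-fold lower than in BFRTV8d, or 284-fold with TMM. An unlisted gene can hold more UMIs than cells, so these ratios rest on that setting and are not strict bounds. Its share of the UMIs of both paralogues was 0.238% at day 0, 0.870% at day 4 and 2.98% at day 8, so NDUFA4 held nearly all of them in each table.

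In complex V, the catalytic part is made of ATP5A1 (the alpha subunit), ATP5B (beta), ATP5C1 (gamma), ATP5D (delta) and ATP5E (epsilon), with alpha and beta in its head. ATP5A1 had 219, 454, 336, 408 and 457 CPM, 2.08-fold higher at day 4. ATP5B had 209.8, 233, 191, 400.3 and 478 CPM, level through induction and 2.10-fold higher in CiMECs than in BFRTV8d. The alpha and beta subunits, which alternate in the head in equal numbers, thus differed between tables in different ways. ATP5E had 1643, 2748, 2165, 3864 and 2309.7 CPM, highest in CiMECs. ATP5C1 had 264, 377, 401, 714 and 485 CPM and ATP5D 194, 349.6, 372, 256 and 446 CPM.

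The stalk that holds the head still includes ATP5F1 (subunit b), ATP5H (d), ATP5J (F6) and ATP5O, the oligomycin sensitivity protein. ATP5H had 285, 823, 597, 1091 and 934 CPM, 2.89-fold higher at day 4 (2.86 to 2.93) and 2.10-fold higher at day 8. ATP5F1 had 213, 536, 549, 392 and 446 CPM, 2.52-fold and 2.58-fold higher at days 4 and 8. ATP5O had 176, 419, 351, 536 and 378 CPM, 2.38-fold higher at day 4. In contrast ATP5J had 1049.9, 968, 839, 1593 and 1321 CPM, lowest at day 8. Of the small membrane subunits, ATP5J2 (f) had 646, 996, 615, 1384 and 1322 CPM, and ATP5L (g) had 1266, 1939.6, 1874, 1246 and 1165 CPM, so that ATP5L was higher at both induced days than at day 0. It was lower in CiMECs than in BFRTV8d as scaled here, with a ratio of 0.665, but the ratio was 1.11 with TMM and 1.16 with DESeq2's factors.

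The c subunit of the rotor ring is encoded by ATP5G1, ATP5G2 and ATP5G3, whose mature peptides are identical. ATP5G2 had 1282, 3055, 3896, 2157 and 2079 CPM, 2.38-fold higher at day 4 (2.37 to 2.40) and 3.04-fold higher at day 8 (3.02 to 3.06). ATP5G1 had 318, 409, 188, 542 and 527 CPM, 2.18-fold lower at day 8 than at day 4 (2.15 to 2.22) and 2.89-fold higher in CiMECs than in BFRTV8d (2.84 to 2.94). ATP5G3 had 1054, 1247, 1162, 1376 and 1441 CPM. The makeup of the family therefore differed between tables. ATP5G2 held 48.3% of its UMIs at day 0, 64.8% at day 4, 74.3% at day 8, 52.9% in CiMECs and 51.4% in GMECs, while ATP5G1 held 12%, 8.69%, 3.58%, 13.3% and 13.0%. The shares in CiMECs and GMECs lay close to each other and close to those of fibroblasts. No source used here says how reads that fit more than 1 copy were counted, so the split between paralogues is uncertain to that extent.

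**Figure D4:**
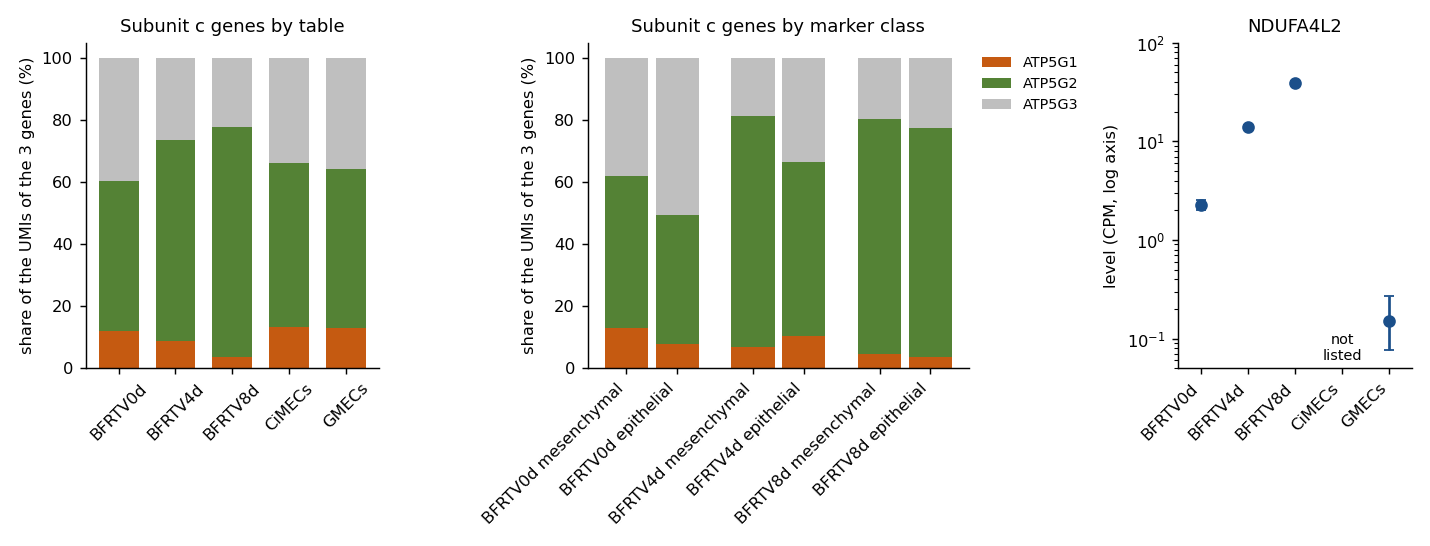
Shares of ATP5G1, ATP5G2 and ATP5G3 in the UMIs of subunit c by table and, in the BFRTV tables, by marker class of the cells, and NDUFA4L2 in CPM (log axis, bars for the 95% counting interval). The ATP5G2 share reaches 74.3% in BFRTV8d, and NDUFA4L2 is not listed in CiMECs.

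Outside the enzyme, ATP5S, known as coupling factor B, had 17.1, 39.8, 51.4, 46.0 and 35.3 CPM, 2.33-fold and 3.01-fold higher at days 4 and 8. ATP5SL, an assembly factor of complex I in spite of its name, had 18.6, 12.7, 12, 10.4 and 27.3 CPM, and was the gene at least 2-fold lower in CiMECs than in GMECs, by 2.64-fold (2.43 to 2.88).

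The level was also read per cell. The genes' share of a barcode's non-ribosomal UMIs had a median of 2.14%, 2.99%, 2.69%, 3.77% and 3.45%. Its interquartile range was widest in BFRTV4d, at 1.32 percentage points, against 0.477 in BFRTV0d and 0.528 in BFRTV8d. In BFRTV4d the 5th and 95th percentiles lay at 1.97% and 4.42%, a span that takes in the medians of the 4 other tables. No barcode lacked UMIs of these genes, and the median barcode held 213, 287, 243, 504 and 407 of them.

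Because BFRTV4d holds cells with epithelial and cells with mesenchymal markers, the genes were compared between such cells within a table. Barcodes were thinned to 3000 UMIs and put in the epithelial class with at least 2 UMIs of the epithelial markers and under 2 of the mesenchymal ones, or in the mesenchymal class in the reverse case. Such a class is a range of a score and not a cell type. In BFRTV4d, 2488 barcodes had 1 or 2 epithelial marker UMIs and 1602 had 1 or 2 mesenchymal ones, and in BFRTV0d 2082 and 373. Too shallow for a class were 0, 45, 8, 938 and 961 barcodes. The part of free RNA and doublets in the class values was not tested.

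In BFRTV4d, the epithelial class (4411 barcodes, 43.4% of those classed) held 37809 CPM of the 72 genes and the mesenchymal class (3282 barcodes, 32.3%) held 23984 CPM. That is a 1.58-fold difference (1.57 to 1.58), with the 2458 barcodes that had both kinds of marker between them at 27801 CPM. The median depth was alike, at 9489 and 9360 UMIs. FTH1, the ferritin heavy chain, moved with the classes and took 1.91% of the UMIs of the epithelial and 17.8% of those of the mesenchymal class. Without FTH1 in the totals the ratio was 1.32. In BFRTV0d, 367 barcodes of the epithelial class had 25490.3 CPM and 9579 of the mesenchymal class had 21077 CPM, 1.21-fold apart, at median depths of 16529 and 9890 UMIs. In BFRTV8d the values were 27044 CPM over 9587 barcodes and 19709 CPM over 87 barcodes, 1.37-fold apart, and 1.18-fold without FTH1. In each of the 3 tables the epithelial class thus had the higher sum.

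Within the epithelial class the sum was 1.48-fold higher at day 4 than at day 0 and 1.40-fold lower at day 8 than at day 4, which left day 8 1.06-fold above day 0. Within the mesenchymal class it was 1.14-fold higher at day 4 than at day 0, and 1.36-fold without FTH1. The complexes differed in that comparison. Complex V had a ratio of 1.347, complex I subunits 0.994 and complex II 0.598, and without FTH1 these were 1.604, 1.183 and 0.712. Of 71 genes compared there, 35 lay above a log2 fold of 0 and 58 above the all-gene median. In the epithelial class, complex I subunits had a ratio of 1.51 and complex II 1.23 at day 4 against day 0. From day 4 to day 8 the sum in the mesenchymal class was 1.22-fold lower. The ratio of day 8 to day 0 in that class was 0.935, or 1.08 without FTH1. Day 4 thus had the highest sum of all 72 genes in both classes. Complex II, however, was highest at day 0 in the mesenchymal class. The ratio of day 8 to day 0 over the whole tables, 1.24, was above that inside either class. The part of the class makeup of the tables in that ratio was not tested. At day 8 against day 0, complex I subunits had ratios of 0.981 in the epithelial and 0.852 in the mesenchymal class. Complex V had 1.16 and 1.07. The epithelial class of CiMECs (4246 barcodes) had 39321 CPM and that of GMECs (4680 barcodes) 34798 CPM, which were near the whole-table values.

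Gene by gene, 21 of 71 genes were at least 2-fold higher in the epithelial than in the mesenchymal class of BFRTV4d, against 28% of all genes, and 0 were at least 2-fold lower, against 9.38%. Their median log2 fold was 0.84, against 0.52 for all genes. In BFRTV0d the counts were 8 higher and 1 lower of 72, against 11.6% and 17.8%, and in BFRTV8d 5 and 1 of 70, against 21.5% and 10.7%. By complex, the epithelial class of BFRTV4d was 2.18-fold higher for complex II, 1.69-fold for complex I subunits and 1.49-fold for complex V, and without FTH1 these were 1.83, 1.42 and 1.25. For the assembly factors of complex I the ratio was 1.05 and turned to 0.878 without FTH1. In BFRTV0d those factors were lower in the epithelial class, with a ratio of 0.628.

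Some genes separated the classes more than the sum did. ATP5B had 523 CPM in the epithelial and 172 CPM in the mesenchymal class at day 0, 3.04-fold higher (2.93 to 3.14), 359.8 and 119 CPM at day 4, 3.01-fold higher (2.91 to 3.12), and 196 and 113 CPM at day 8. ATP5B was thus level over the pooled BFRTV tables, while within the epithelial class it was 2.66-fold lower at day 8 than at day 0. SDHAF1 had 26.6 and 4.95 CPM in the classes of BFRTV4d, 5.37-fold apart (4.55 to 6.37). NDUFAF6 was lower at later days inside both classes, 7.07-fold lower at day 8 than at day 0 in the epithelial class (6.04 to 8.27) and 11.7-fold lower at day 4 in the mesenchymal class (10.1 to 13.5).

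NDUFA4L2 already differed between the classes at day 0, at 12.7 CPM (90 UMIs) in the epithelial and 0.889 CPM (88 UMIs) in the mesenchymal class, 14.3-fold higher (10.5 to 19.4). At day 4 the classes had 16.3 and 12.2 CPM and at day 8 39.7 and 18.3 CPM. It was 3.13-fold higher at day 8 than at day 0 within the epithelial class (2.54 to 3.90) and 13.8-fold higher at day 4 within the mesenchymal class (10.9 to 17.5). The higher level at later days was thus present inside each class. ATP5G2 behaved otherwise at day 4, with 2938 CPM in the epithelial and 3036 CPM in the mesenchymal class. These values, like those of the other genes by class, keep FTH1 in the totals. FTH1 took 1.91% and 17.8% of the UMIs of these 2 classes, so leaving it out would raise the mesenchymal value more. The ATP5G2 share of the subunit c UMIs was 55.9% in the epithelial and 74.6% in the mesenchymal class at day 4. It was 41.5% and 49.2% at day 0, and 74.0% and 75.9% at day 8.

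**Figure D5:**
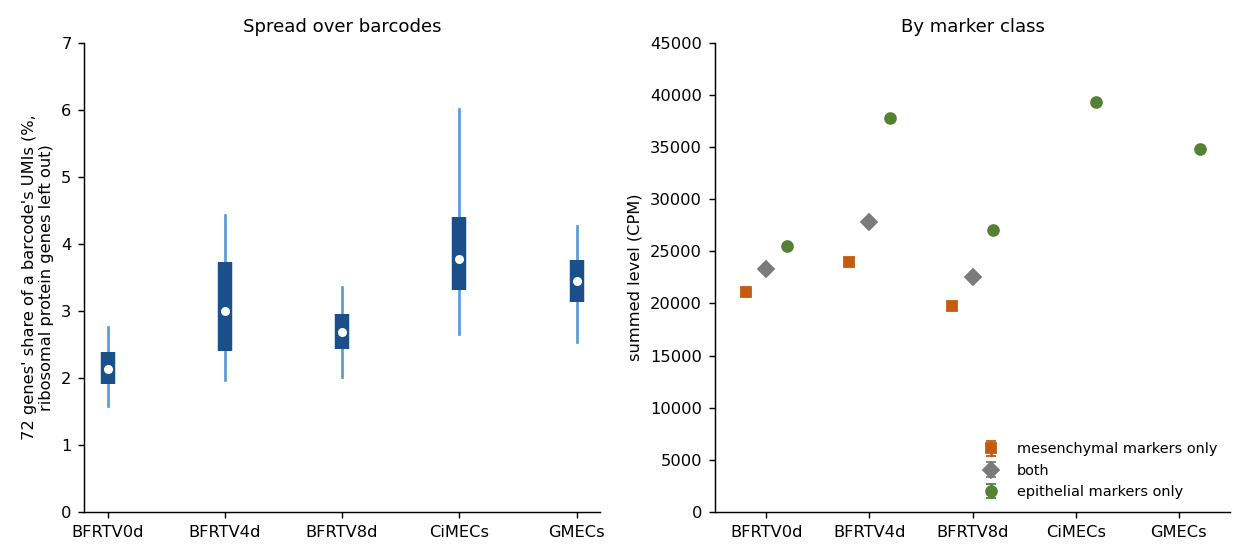
Left, the 72 genes' share of a barcode's non-ribosomal UMIs by table, with the 5th to 95th percentile as a line, the quartiles as a bar and the median as a white point. Right, their summed CPM by marker class with 95% counting intervals; in BFRTV4d the epithelial class lies at 37809 CPM and the mesenchymal class at 23984 CPM.

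Cells with at least 2 UMIs of the cycling markers, such as MKI67 and TOP2A, were set beside the others. In BFRTV4d they had 35966 CPM of the 72 genes, against 29249.7 CPM in the rest, a ratio of 1.23, but within the epithelial class of that table the ratio was 1.02. In the epithelial class of BFRTV8d it was 1.07, of CiMECs 0.989 and of GMECs 0.991.

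Other mitochondrial and metabolic genes were read for comparison from 7 lists. The 77 genes of the mitochondrial ribosome, which translates the mitochondrially encoded subunits, did not share the higher levels during induction. At day 8 against day 0, 4 were at least 2-fold higher and 22 lower, where 19.7% and 28% of all genes were, with a median 0.35 below that of all genes on the log2 scale, and MRPL3 was 6.09-fold higher while MRPL27 and MRPL17 were 4.73-fold and 4.71-fold lower. The number lower was thus near the background and the number higher below it. In CiMECs against BFRTV8d, 18 were higher and 5 lower, where 9.94% and 43.3% of all genes were, with a median 1.22 above all genes. Of 20 genes of mitochondrial protein import, 0 were at least 2-fold higher and 6 lower at day 8, the latter near the 28% of all genes. TOMM40, the outer membrane channel, was 5.34-fold lower. Import genes at least 2-fold higher in CiMECs than in BFRTV8d were 6 and lower ones 3, the former above the 9.94% and the latter below the 43.3% of all genes.

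Of 10 regulators of mitochondrial biogenesis and mitochondrial gene expression compared at day 8 with day 0, 5 were at least 2-fold lower, against 28% of all genes, and 1 was higher, against 19.7%. POLRMT, the mitochondrial RNA polymerase, was 4.72-fold lower and PPRC1, a coactivator, 3.69-fold lower, whereas PPARGC1B, another coactivator, was 4.33-fold higher. In CiMECs against GMECs 3 of 7 were lower, against 26% of all genes, with POLG, the mitochondrial DNA polymerase, 3.60-fold lower and ESRRA 2.68-fold lower. Other respiratory chain and assembly genes were mixed at day 8, with 2 of 12 higher and 3 lower, near or under the 19.7% and 28% of all genes. OXA1L, which inserts proteins into the inner membrane, was 5.20-fold higher, and TTC19, a complex III factor, was 2.55-fold lower. Of that list, 1 of 11 was higher and 3 were lower in CiMECs than in BFRTV8d, the latter below the 43.3% of all genes.

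Of 15 citric acid cycle genes, 1 was at least 2-fold higher and 1 lower at day 8 against day 0, both below the 19.7% and 28% of all genes, with DLAT, a subunit of pyruvate dehydrogenase, 3.25-fold lower. In CiMECs against GMECs 6 of 16 were lower, against 26% of all genes, among them PC, DLAT and OGDH by 3.07-fold, 2.78-fold and 2.72-fold. Of 16 glycolysis genes, 3 were higher and 3 lower at day 8, no larger shares than the 19.7% and 28% of all genes, with the muscle phosphofructokinase PFKM 7.20-fold and LDHB 3.21-fold higher. In CiMECs against BFRTV8d 0 of 16 were higher and 7 lower, the latter at the 43.3% of all genes, and the glycolysis median lay 0.18 above that of all genes. Of 12 hypoxia response genes, 5 were higher and 2 lower at day 8, against 19.7% and 28% of all genes, with EGLN3 10.6-fold and ADM 7.25-fold higher, and their median lay 0.97 above all genes. In CiMECs against BFRTV8d 11 of 13 of them were at least 2-fold lower, against 43.3% of all genes, with a median 1.65 below all genes, beside the value of NDUFA4L2 in the same comparison. ATPIF1, the inhibitor protein of the ATP synthase, was chosen after its values were seen. It had 503, 985, 552, 2468 and 1754 CPM and was 4.47-fold higher in CiMECs than in BFRTV8d.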

How the data were processed

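The authors deposited 1 table of raw UMI counts per group, with genes in rows and cell barcodes in columns. FastQC 0.10.1 and Cell Ranger appear in the submitters' processing notes. The genome build, the annotation and the handling of reads with several matches were not given in the sources used here. Cell names carry no sample, so the 11 samples entered as 5 tables. The BFRTV tables list genes found in at least 11 cells and the others in at least 6; unlisted genes were set at those counts. Counts were summed over barcodes and scaled to CPM without ribosomal protein genes. Folds have exact 95% intervals from the conditional binomial distribution, levels exact Poisson intervals. Genes with at least 10 CPM in 1 of 2 tables were compared and called at 2-fold. Classes with under 50 barcodes gave no value. Scaling factors of edgeR 4.0.16 (TMM) and DESeq2 1.42.0, other totals, thresholds and marker cuts were tried. Fold and interval functions were tested on simulated data.

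The 72 genes and the comparison lists (mitochondrial ribosome, import, regulators, other respiratory chain, citric acid cycle, glycolysis, hypoxia response) were chosen with earlier results of these data known. The text names genes that were at least 2-fold apart (the 12 largest where more), the highest and lowest fold of a complex, paralogues, the genes of a complex with most UMIs, and up to 3 genes per other list. The values of 1 of the 72 genes are not reported here by name. Symbols matched RefSeq ARS1.2 for 72 of 72 genes. Python 3.11.15, pandas 2.3.3, scipy 1.17.1 and R 4.3.3 were used.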

Additional observations from a re-analysis of the deposited data

How the results depend on the processing

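The log2 ratio of the summed 72 genes was 0.52 at day 4 against day 0, 0.31 at day 8 against day 0, -0.21 at day 8 against day 4, 0.56 in CiMECs against BFRTV8d and 0.18 in CiMECs against GMECs, and no alternative tried turned its sign. In the same order it was 0.72, 0.45, -0.28, 1.30 and 0.68 with edgeR's TMM, and 0.76, 0.48, -0.28, 1.36 and 0.71 with DESeq2's factors. With totals over all listed genes it was 0.13 in CiMECs against BFRTV8d and 0.37 in CiMECs against GMECs. With totals over genes listed in all 5 tables it was 0.50, 0.29, 0.54 and 0.17 in the comparisons other than day 8 against day 4. As a mean per barcode it was 0.52, 0.32, -0.20, 0.56 and 0.21. Chosen after seeing the data were totals without FTH1, which gave 0.64, 0.31, -0.33, 0.58 and 0.19, and subunits alone, which gave 0.55, 0.35 and -0.21 in the 3 BFRTV comparisons and 0.19 in CiMECs against GMECs. The number of genes at least 2-fold apart was 17, 16, 3, 23 and 2. At 1.5-fold it was 36, 31, 13, 44 and 15, and at 4-fold 3, 3, 0, 2 and 0. In CiMECs against BFRTV8d it was 14 with totals over all listed genes, 49 with TMM and 51 with DESeq2's factors. In CiMECs against GMECs it was 13 with TMM, 16 with DESeq2's factors and 1 with a minimum of 50 CPM. The other alternatives stayed within counting error or within 1.5 times the count, barcodes with at least 2000 UMIs among them. A class cut of 3 UMIs, added after seeing the data, moved class sums by -0.351% to 0.987%. No paired analysis was possible because each group is 1 pooled table without replicates. Depth did not limit the sums, whose intervals were narrow; the lack of replicates did. The cause of the shifts between scalings was not tested.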

Other observations

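The summed level of the 72 genes was also read by depth of the barcode. Over barcodes grouped at 3000, 10000 and 20000 UMIs it ran from 20938 to 24273 CPM for BFRTV0d, from 30401 to 33705 CPM for BFRTV4d, from 25972 to 27381 CPM for BFRTV8d, from 38109 to 42317 CPM for CiMECs and from 33039 to 35808 CPM for GMECs. Of these ranges, those of BFRTV4d and GMECs overlapped, and the others lay apart. A pair of tables shared 37 to 147 cell barcodes, against 39.7 to 148 for independent draws from the barcode list of the kit.

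Of the UMIs of the 72 genes, the 5 with most UMIs in a table held 29.2%, 34.3%, 38.9%, 27.7% and 26.1%, in the order of tables used above. The contractile markers, such as ACTA2 and TAGLN, summed to 1562, 2745, 627, 3117 and 119 CPM. The highest single marker of a table held 1318, 1267, 285, 3070 and 81.7 CPM of this, nearly all of the sum in CiMECs. The part of the contractile markers in the differences of the 72 genes was not tested.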
